A study of Homo sapiens with 15 samples.

Results

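The 3 libraries of WT-EF-rescued A673 cells were set against the 3 libraries of iLuc cells, which never lost their own EWS/FLI, out of 15 libraries in the experiment. All 6 are the labelled replicates of those 2 conditions, and the 3 iEF libraries, depleted and not rescued, gave the direction of each knockdown change. EWS/FLI is the fusion of the EWS low-complexity domain with the FLI DNA-binding domain that drives Ewing sarcoma. It turns genes on from GGAA repeats and ETS sites, and it keeps down a mesenchymal program of matrix, adhesion and contractile genes. In a knockdown/rescue experiment an RNAi-resistant cDNA is put back into depleted cells, and the comparison with never-depleted cells asks how far wild-type EWS/FLI brings each gene back.

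A673 is an established Ewing sarcoma line, so that all libraries come from 1 line. The 6 libraries not described here carry 1 of 2 altered cDNAs in the same system, del22, which lacks the EWS domain, and DAF, with tyrosine-to-alanine changes in it, and they entered the fit only. iLuc cells received an shRNA against luciferase, whereas iEF and WT-EF cells received the iEF-2 shRNA against EWS/FLI. The cDNA was added on day 5, 4 days after the shRNA, and rescued cells carried a 3X-FLAG-tagged wild-type EWS/FLI in the pMSCV-hygro backbone. iLuc and iEF cells carried no EWS/FLI cDNA. Until day 16 all cells were selected with puromycin (2 μg/mL) and hygromycin B (400 μg/mL). The study describes independent experiments with the profiled cells, but no label ties a library to one of them, and p-values measure the spread between these libraries. Bulk RNA cannot tell fewer cells of a kind from less RNA per cell.

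Values are in CPM, the deposited read counts of a gene scaled to the TMM-normalized size of its library. Total counts ran from 29959146 to 32869306 in iLuc and from 32943231 to 35976236 in WT-EF libraries. A gene is called where its edgeR quasi-likelihood test gave an adjusted p under 0.05 over 28793 genes, in 1 fit of the 15 libraries, del22 and DAF included, that took the replicate number as a block. Fold changes are WT-EF minus iLuc on the log2 scale unless another pair is named. *FLI1* (chr11:128556430-128683162 of GRCh37), whose reads can come from the endogenous fusion, from intact FLI1 and from the cDNA, and are counted together, was at 48.0, 47.8 and 52.4 CPM in iLuc replicates 1, 2 and 3. The WT-EF libraries held 16.0, 18.0 and 18.7 CPM and the iEF libraries 12.9, 15.5 and 15.3 CPM. Every WT-EF library was below every iLuc library and above every iEF library. The log2 fold change was -1.49 (SE 0.10, edgeR adjusted p = 6.2e-07), and the rise over iEF was not called, at a log2 fold change of 0.27 (SE 0.10, edgeR adjusted p = 0.0538). In the study the shRNA was directed at an untranslated region of EWS/FLI. Reads from such regions need not come from the cDNA, so the pooled count does not give the level of the cDNA. Rescued protein was shown in the study by western blot. *EWSR1*, the other fusion partner, was not called, at a log2 fold change of -0.16 (SE 0.07, edgeR adjusted p = 0.12). Of the Ewing sarcoma markers, *NR0B1*, *STEAP1*, *LIPI* and *FLI1* were at 16 CPM or more in each of the 6 libraries, and *NKX2-2* was at 4.31, 5.89 and 5.49 CPM in iLuc and 2.22, 2.14 and 2.69 CPM in WT-EF libraries. The summed level of 16 tested markers of blood, epithelium, endothelium, liver, muscle and glia ran from 30.1 to 64.7 CPM in iLuc, from 38.0 to 83.4 CPM in WT-EF and from 185.2 to 239.0 CPM in iEF libraries. Of the 16, 3 (18.8%) were called higher and 2 (12.5%) lower in WT-EF than in iLuc, against 10.7% and 9.03% over all genes tested. With the other settings the number called higher ran from 1 without WT-EF replicate 1 or iLuc replicate 1 to 5 without WT-EF replicate 3 or replicate 3 and the number lower from 0 without replicate 1 to 3 with no filter on low counts. *PDGFRA*, a receptor of mesenchymal and glial cells, was the largest of those higher, by 2.61 on the log2 scale, and the cardiac troponin gene *TNNT2* the larger of those lower, at a log2 fold change of -2.48. The part of these markers in the results was not tested. Each count and each named gene was recomputed under 16 alternative analyses. 9 of them left out libraries, either 1 library (such as WT-EF replicate 3) or every library with one replicate number (such as replicate 1). Another used the authors' ComBat-adjusted counts, in which differences between replicate sets had been evened out. On those counts fold changes above iLuc were smaller. The main fit already took the replicate number as a block, and what made the values smaller was not tested. Over the 87 named genes called higher the median log2 fold change was 2.57 on the deposited counts and 1.38 on the ComBat-adjusted counts, 53 were smaller by over 1.5 times and 13 were not called. Over the 62 named genes called lower the medians were -1.31 and -1.12, and each was called on both. In the ComBat-adjusted data the log2 fold change was 0.65 for *PDGFRA* (adjusted p = 0.448, not called). Under another setting the call was lost on *NKX2-2* without replicate 2 (adjusted p = 0.0813) and on *TNNT2* without replicate 1 (adjusted p = 0.0693).

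Rescued cells differed from never-depleted cells at 5679 genes, which is 19.7% of those tested. 3078 genes (10.7%) were higher and 2601 (9.03%) were lower in WT-EF than in iLuc. Past a 2-fold difference, 1503 genes (5.22%) were higher and 895 (3.11%) were lower. For scale, iLuc exceeded iEF at 5624 genes (19.5%) and was below it at 6368 (22.1%), while WT-EF exceeded iEF at 3704 (12.9%) and was below it at 4898 (17.0%). These 3 contrasts share libraries, and the classes formed from them are a description. A gene was under-corrected where WT-EF still differed from iLuc towards the iEF level, and over-corrected where WT-EF lay beyond the iLuc level. Under-corrected genes numbered 4483, or 37.4% of the 11992 genes called between iLuc and iEF. Over-corrected genes numbered 205, or 1.71%. The iLuc libraries enter WT-EF minus iLuc and iLuc minus iEF with opposite signs. Spread among them alone therefore tilts this split towards under-correction. At a further 4594 genes (38.3%) WT-EF had moved from iEF in the direction of iLuc and no difference from iLuc was called. The remaining 991 genes called between WT-EF and iLuc were not called between iLuc and iEF.

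Under-correction covered 1985 genes that were higher in iLuc than in iEF, 35.3% of that side, and 2498 genes that were lower, 39.2% of theirs. It came in 3 forms. WT-EF had moved part of the way at 2262 genes, of which 1525 were on the repressed and 737 on the activated side. At 2131 genes no difference between WT-EF and iEF was called, and here the activated side held the larger number, 1200 against 931. At the last 90 genes WT-EF had moved from iEF away from iLuc. The median fold change from iLuc was 1.00 at under-corrected repressed genes, -0.77 at under-corrected activated genes, 0.98 at over-corrected genes above iLuc and -0.53 at those below it. WT-EF replicate 3 lay nearest to iLuc at 72% of the under-corrected genes above iLuc and at 63.9% of those below it, and WT-EF replicate 1 at 9.89% and 5.89%. Without the replicate 3 WT-EF library the under-corrected genes numbered 5485, without the replicate 1 WT-EF library 2858, and without all replicate 1 or replicate 2 libraries 1468 and 1701. Over-corrected genes numbered 63 without the replicate 2 libraries and 65 without the replicate 1 libraries.

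**Figure D1:**
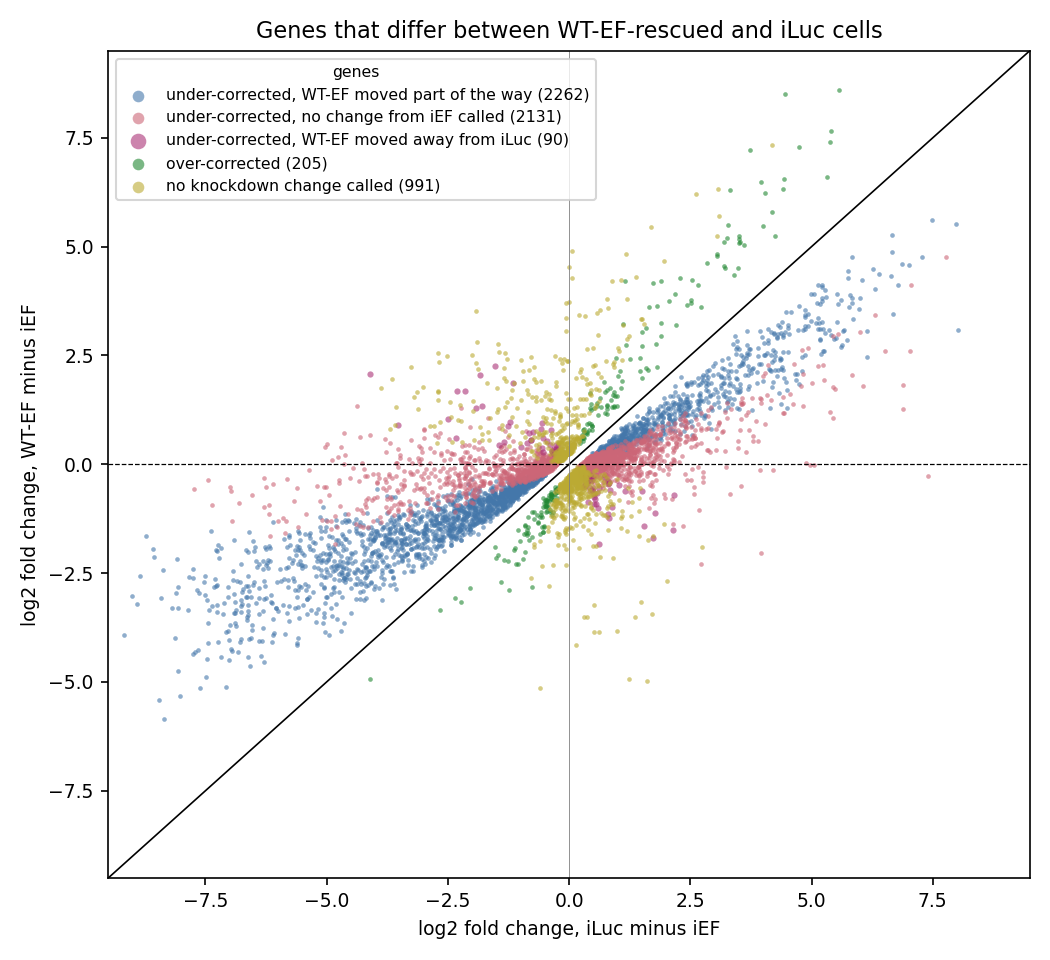
Each point is a gene called between WT-EF and iLuc, with the log2 fold change of iLuc minus iEF on the x axis and of WT-EF minus iEF on the y axis, coloured by class with the number of genes in brackets. The solid diagonal marks WT-EF equal to iLuc and the dashed line WT-EF equal to iEF. Both axes use the same iEF libraries. The 4483 under-corrected genes lie between the diagonal and the dashed line or past it, and the 205 over-corrected genes lie beyond the diagonal.

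The programs left above the never-depleted level were those of matrix, adhesion, the contractile cytoskeleton and secreted signals, and those left below it were lipid synthesis, DNA replication, ribosomal proteins and oxidative phosphorylation. Against a background of 10.7% higher and 9.03% lower, 80% of EWS/FLI-repressed targets, 65.4% of integrins and laminins and 65% of YAP/TEAD target genes were called higher. Called lower were 83.3% of the cholesterol synthesis genes, 58.8% of the fatty acid synthesis genes and 56.2% of the DNA replication genes. This background includes genes with no knockdown change called. Of all genes lower in iLuc than in iEF 39.2% were under-corrected, and of all genes higher in iLuc 35.3%. Over all genes tested the median fold change was -0.01. Nearer to the background in both directions was the voltage-gated ion channel list, with 17.2% higher and 13.8% lower.

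**Figure D2:**
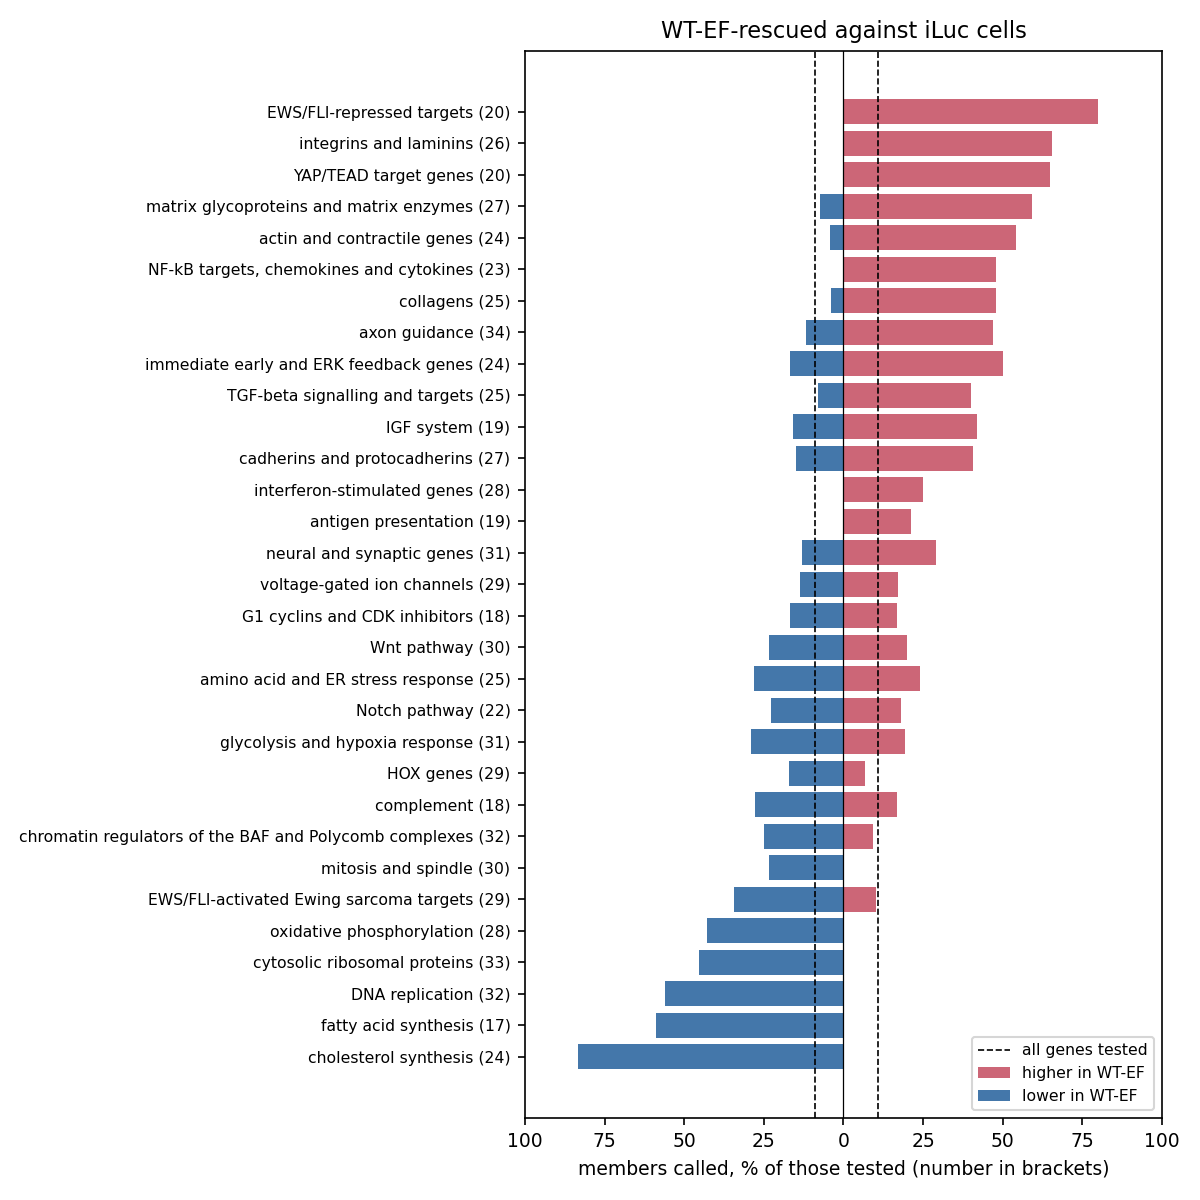
Bars give the share of the tested members of each gene list (number in brackets) that was called lower (left, blue) or higher (right, red) in WT-EF than in iLuc libraries, and dashed lines the same share over all genes tested, 9.03% and 10.7%. Repressed targets, adhesion and matrix lists extend to the right, and cholesterol, fatty acid and DNA replication lists to the left.

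Repressed targets came down from the iEF level, and most stayed above iLuc. Of 20 EWS/FLI-repressed targets, 16 were called higher in WT-EF than in iLuc and none lower, with a median of 1.84 (12 to 18 higher over the 16 alternatives). All 20 were lower in WT-EF than in iEF. The hyaluronan receptor *CD44* was at 19.5, 10.6 and 9.61 CPM in iLuc, 476, 232 and 67.2 CPM in WT-EF and 1680.5, 1055 and 1597 CPM in iEF replicates 1, 2 and 3. WT-EF replicate 3 held the lowest rescued level, and the 3 groups did not overlap. Its log2 fold change was 4.17 (SE 0.41, edgeR adjusted p = 1.17e-05). *IGFBP3*, a secreted binder of insulin-like growth factors, stood at 35.9, 30.3 and 22.1 CPM in iLuc and 257, 185 and 73.6 CPM in WT-EF, against 7644, 4804 and 4874 CPM in iEF. The rescued libraries were thus nearer to iLuc than to iEF, yet each lay above all iLuc libraries by a fold change of 2.47 (SE 0.26, edgeR adjusted p = 2.21e-05). For *LOX*, the lysyl oxidase that cross-links collagen, the levels were 4.31, 2.89 and 3.19 CPM in iLuc, 66.0, 45.5 and 13.3 CPM in WT-EF and 405, 266 and 422 CPM in iEF. That left a difference of 3.52 on the log2 scale (SE 0.38, edgeR adjusted p = 2.62e-05). *TGFBR2*, the type II TGF-beta receptor, was at 25.9, 24.6 and 26.5 CPM in iLuc and 65.4, 47.9 and 47.2 CPM in WT-EF, with iEF at 136, 134 and 148 CPM. No libraries overlapped between groups, and the log2 fold change was 1.07 (SE 0.16, edgeR adjusted p = 0.000318). The Wnt antagonist *DKK1* (log2 4.0), the ecto-nucleotidase *NT5E* (log2 3.75) and *PHLDA1* (log2 3.81) were left higher too. After ComBat adjustment the log2 fold change was 1.61 for *CD44*, 0.49 for *IGFBP3* (adjusted p = 0.488, not called), 1.38 for *LOX*, 1.71 for *DKK1*, 1.68 for *NT5E* and 1.62 for *PHLDA1*.

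Matrix genes held several of the larger differences left. Of 25 collagens, 12 (48%) were higher and 1 (4%) was lower, against 10.7% and 9.03% over all genes tested (median 0.93, 8 to 13 higher over the alternatives). Of 27 matrix glycoproteins and matrix enzymes, 16 (59.3%) were higher and 2 (7.41%) lower (median 1.29, 13 to 19 higher). The fibrillar collagen gene *COL11A1* (chr1:103342023-103574428 of GRCh37) had 0.642, 0.421 and 0.925 CPM in iLuc, 19.7, 53.8 and 9.51 CPM in WT-EF and 52.3, 88.3 and 93.1 CPM in iEF replicates 1, 2 and 3. The WT-EF libraries spread widely and overlapped iEF, with replicate 2 inside the iEF range, and none came down to the iLuc level. The log2 fold change was 5.18 (SE 0.53, edgeR adjusted p = 1.62e-05). *COL6A3*, a chain of microfibrillar collagen VI, was at 4.004, 2.38 and 3.43 CPM in iLuc and 30.7, 18.3 and 16.8 CPM in WT-EF, far below its 262, 459.8 and 351 CPM in iEF. Its remaining log2 fold change was 2.76 (SE 0.31, edgeR adjusted p = 3.83e-05). *COL3A1*, the chain of fibrillar collagen III, behaved otherwise, at 30.0, 9.31 and 17.3 CPM in iLuc, 88.8, 131 and 166 CPM in WT-EF and 88.9, 228 and 148 CPM in iEF. WT-EF overlapped iEF and no difference between them was called (log2 fold change -0.29, SE 0.43, edgeR adjusted p = 0.684), while the difference from iLuc was 2.62 on the log2 scale (SE 0.46, edgeR adjusted p = 0.00114). The network collagen *COL8A1* was left at a difference of 3.56 on the log2 scale. Thrombospondin 2 (*THBS2*), a matricellular protein, was at 0.642, 0.393 and 0.239 CPM in iLuc and 16.4, 15.1 and 3.67 CPM in WT-EF, with 27.0, 30.9 and 30.7 CPM in iEF. WT-EF replicate 3 was again the lowest of the rescued libraries, and the log2 fold change was 4.78 (SE 0.57, edgeR adjusted p = 5.73e-05). The proteoglycan versican (*VCAN*, log2 3.11) was partly corrected as well. Periostin (*POSTN*) ran at 19.2, 144 and 13.2 CPM in WT-EF, so that replicate 2 alone was at the iEF level of 59.6, 101.3 and 172 CPM. All 3 exceeded the iLuc libraries at 3.48, 1.51 and 1.70 CPM, by 4.14 on the log2 scale (SE 0.73, edgeR adjusted p = 0.00113). Elastin (*ELN*, log2 -0.89) and fibulin-5 (*FBLN5*, log2 -0.92), both of the elastic fibre, and *COL13A1* (log2 -0.68) were the members called lower, and were picked out after their values were seen. On the ComBat-adjusted counts the log2 fold change was 0.95 for *COL6A3* (adjusted p = 0.132, not called), 2.18 for *COL8A1*, 2.13 for *THBS2*, 1.78 for *VCAN* and 2.37 for *POSTN*. In other analyses the call was lost on *FBLN5* with DESeq2's size factors, with no replicate block, in a fit of the 6 libraries alone and without WT-EF replicate 1, WT-EF replicate 3, iLuc replicate 1, iLuc replicate 3, replicate 1 or replicate 3 (adjusted p 0.0587 to 0.462) and on *COL13A1* with no replicate block, in a fit of the 6 libraries alone and without WT-EF replicate 1, WT-EF replicate 2, iLuc replicate 2, iLuc replicate 3, replicate 2 or replicate 3 (adjusted p 0.0537 to 0.267).

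Adhesion receptors showed the same direction. Of 26 integrins and laminins, 17 were higher and none was lower (median 0.87). Over the alternatives the number higher ran from 10 without replicate 1 to 21 without WT-EF replicate 3. *ITGA3*, the alpha 3 chain of a laminin receptor, was at 5.07, 3.56 and 2.12 CPM in iLuc, 66.8, 29.3 and 12.4 CPM in WT-EF and 375, 290.4 and 366 CPM in iEF. The groups did not overlap, and the log2 fold change was 3.25 (SE 0.42, edgeR adjusted p = 0.00011). *LAMA4*, a laminin alpha chain, was brought from 257, 284 and 235 CPM in iEF to 15.3, 10.5 and 11.3 CPM in WT-EF. That still exceeded 2.54, 1.12 and 1.97 CPM in iLuc, by 2.74 on the log2 scale (SE 0.24, edgeR adjusted p = 5.79e-06). *ITGB8* (log2 2.97) and *ITGA10* (log2 1.95), both integrin chains, stayed higher too. N-cadherin (*CDH2*), the mesenchymal cadherin, was at 30.8, 16.1 and 27.8 CPM in iLuc, 108, 91.4 and 85.2 CPM in WT-EF and 373, 339 and 403 CPM in iEF. Its WT-EF libraries lay close together, and the log2 fold change was 1.97 (SE 0.15, edgeR adjusted p = 1.3e-06). The atypical cadherin *CDH13* was left higher by 4.35 on the log2 scale (SE 0.25, edgeR adjusted p = 1.47e-07). Over 27 cadherins and protocadherins, 11 (40.7%) were higher and 4 (14.8%) lower, with a median of 0.52, against 10.7% and 9.03% over all genes tested. Over all 16 analyses the number called higher ran from 7 without replicate 1 or replicate 2 to 14 with no filter on low counts or without replicate 3 and the number lower from 1 with no replicate block or without WT-EF replicate 1 to 5 with no filter on low counts or in a fit of the 6 libraries alone. In the ComBat-adjusted data the log2 fold change was 1.16 for *ITGA3*, 0.81 for *LAMA4* (adjusted p = 0.171, not called), 1.59 for *ITGB8*, 0.58 for *ITGA10* (adjusted p = 0.282, not called), 1.30 for *CDH2* and 1.63 for *CDH13*.

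**Figure D3:**
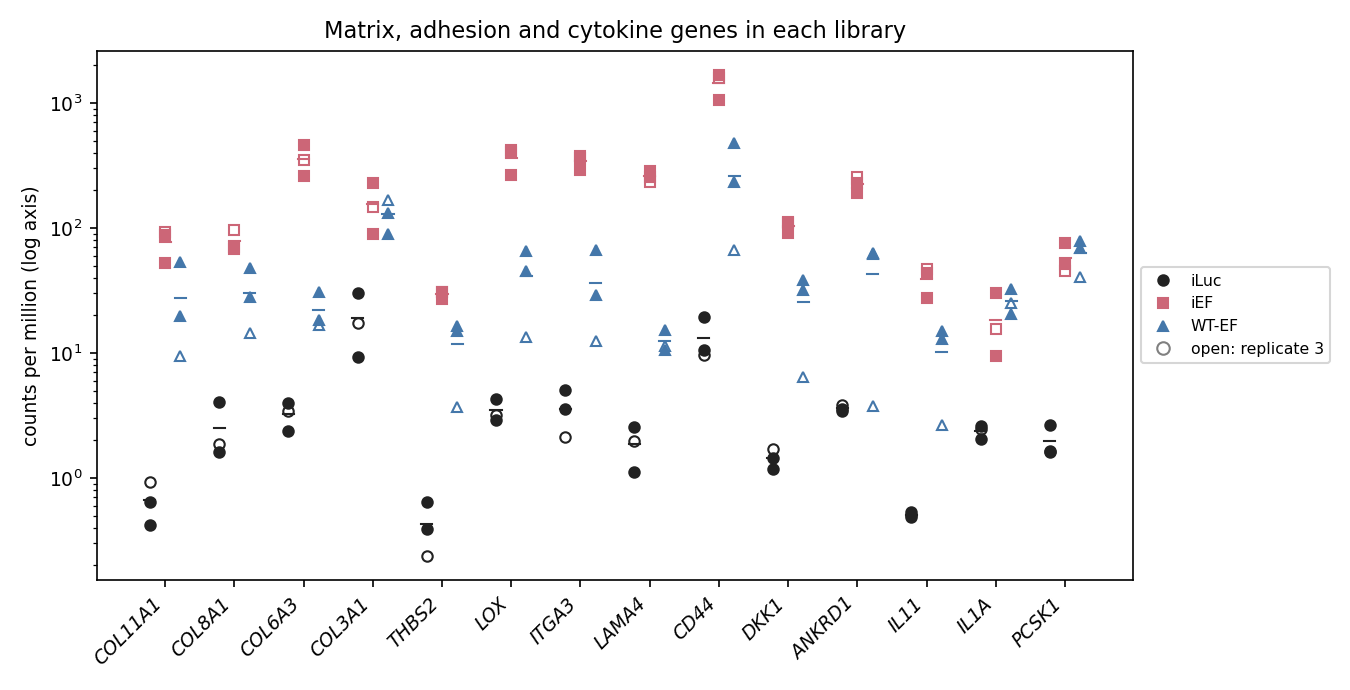
CPM on a log axis in each iLuc (black circles), iEF (red squares) and WT-EF (blue triangles) library for 14 genes, with open symbols for replicate 3 and short lines for group means. WT-EF libraries lie above iLuc for all 14 genes except replicate 3 of *ANKRD1*, and WT-EF replicate 3 is the lowest rescued library for each gene other than *COL3A1*, *LAMA4* and *IL1A*.

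In the contractile and YAP/TEAD lists WT-EF replicate 3 stood nearest to iLuc. YAP and TEAD form the transcription factor complex that responds to matrix stiffness and actin tension. Of 24 actin and contractile genes, 13 (54.2%) were higher and 1 (4.17%) lower, with a median of 0.59. The median difference of their log2(CPM + 1) from the iLuc mean was 0.62, 0.55 and 0.08 in WT-EF replicates 1, 2 and 3, with replicate 3 close to the iLuc libraries at 0.04, -0.10 and 0.03. The number called higher ran from 1 without replicate 2 to 18 without WT-EF replicate 3. *TAGLN*, an actin-binding protein of smooth muscle, was at 8.86, 3.17 and 7.43 CPM in iLuc, 61.5, 43.0 and 6.26 CPM in WT-EF and 135, 141 and 146 CPM in iEF. WT-EF replicate 3 fell inside the iLuc range, and the log2 fold change was 2.45 (SE 0.53, edgeR adjusted p = 0.00471). Zyxin (*ZYX*), of focal adhesions, was tighter, at 12.9, 10.2 and 10.1 CPM in iLuc and 34.7, 27.2 and 23.6 CPM in WT-EF against 39.4, 37.6 and 49.3 CPM in iEF. The iLuc and WT-EF libraries did not overlap, with a difference of 1.37 on the log2 scale (SE 0.15, edgeR adjusted p = 2.93e-05). Of 20 YAP/TEAD targets, 13 were higher and none lower (median 0.90). Across the alternatives the number higher ran from 5 without replicate 1 to 16 without WT-EF replicate 3. The muscle ankyrin-repeat gene *ANKRD1*, a widely used readout of YAP, was at 3.45, 3.59 and 3.82 CPM in iLuc, 63.6, 62.0 and 3.78 CPM in WT-EF and 229, 192 and 257 CPM in iEF. Replicate 3 matched iLuc while the others lay well below the iEF level, and the log2 fold change of 3.57 (SE 0.70, edgeR adjusted p = 0.00247) is an average over unlike libraries. The receptor kinase *AXL* was at 38.2, 18.6 and 5.59 CPM in WT-EF and 2.69, 1.77 and 1.91 CPM in iLuc, without overlap, at a log2 fold change of 3.15 (SE 0.39, edgeR adjusted p = 8.17e-05). In the TGF-beta list 10 of 25 genes (40%) were higher and 2 (8%) lower, against 10.7% and 9.03% over all genes tested. Under these alternatives the number called higher ran from 5 without replicate 1 to 17 without replicate 3 and the number lower from 0 in a fit of the 6 libraries alone or without replicate 1 to 3 with no filter on low counts. Among those higher were the matrix protein *TGFBI* (log2 2.92), the ligand *TGFB2* (log2 2.19) and the activin subunit *INHBA* (log2 2.08). After ComBat adjustment the log2 fold change was 1.47 for *TAGLN*, 1.37 for *ANKRD1*, 1.39 for *AXL*, 1.61 for *TGFBI*, 1.26 for *TGFB2* and 1.23 for *INHBA* (adjusted p = 0.0524, not called). The calls lost in the alternatives were those on *TAGLN* without replicate 1 or replicate 2 (adjusted p 0.112 to 0.16), on *ANKRD1* without replicate 1 or replicate 2 (adjusted p 0.0846 to 0.101) and on *TGFB2* without WT-EF replicate 1, replicate 1 or replicate 2 (adjusted p 0.0549 to 0.169). Under another setting the call was lost on *INHBA* without WT-EF replicate 2, replicate 1 or replicate 2 (adjusted p 0.0786 to 0.17).

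Secreted inflammatory signals also stayed high. Of 23 NF-kB targets, chemokines and cytokines, 11 (47.8%) were called higher and none lower, with a median of 1.59, against 10.7% and 9.03% over all genes tested. The number called higher ran from 6 without replicate 1 to 16 with no filter on low counts over the alternatives. The cytokine *IL11* was at 0.489, 0.533 and 0.507 CPM in iLuc, 15.1, 13.0 and 2.64 CPM in WT-EF and 43.8, 27.6 and 46.8 CPM in iEF. The groups did not overlap, and the log2 fold change was 4.29 (SE 0.59, edgeR adjusted p = 0.000187). *IL1A*, which encodes interleukin 1 alpha, was at 2.60, 2.05 and 2.45 CPM in iLuc and 32.4, 20.6 and 25.3 CPM in WT-EF, with 9.46, 29.9 and 15.6 CPM in iEF. All WT-EF libraries lay within or above the iEF range, with no difference from iEF called (log2 fold change 0.61, SE 0.66, edgeR adjusted p = 0.553), and the difference from iLuc was 3.61 on the log2 scale (SE 0.76, edgeR adjusted p = 0.00367). Interleukin 1 beta (*IL1B*) was left higher by 3.57 on the log2 scale (SE 0.81, edgeR adjusted p = 0.00598). *LIF*, a cytokine that like IL11 signals through gp130, was lowered from 59.0, 48.1 and 72.2 CPM in iEF to 8.45, 5.07 and 2.80 CPM in WT-EF, and stayed above 0.550, 0.449 and 0.537 CPM in iLuc by 3.52 on the log2 scale (SE 0.65, edgeR adjusted p = 0.00152). On the ComBat-adjusted counts the log2 fold change was 2.10 for *IL11*, 1.85 for *IL1B* (adjusted p = 0.052, not called) and 1.19 for *LIF* (adjusted p = 0.248, not called). In other analyses the call was lost on *IL1B* without replicate 1 or replicate 2 (adjusted p 0.074 to 0.0758).

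For interferon-stimulated genes the count was smaller, at 7 (25%) higher and none lower of 28, though 26 of the 28 had a positive fold change and the median was 1.18. WT-EF replicate 3 was the highest here, with median differences from the iLuc mean of 0.73, 0.47 and 1.20 on the log2(CPM + 1) scale. The number called higher ran from 1 without WT-EF replicate 1 to 19 with no filter on low counts over the alternatives. *OASL*, an antiviral protein, was at 0.489, 0.449 and 0.985 CPM in iLuc, 5.76, 7.21 and 3.99 CPM in WT-EF and 20.3, 19.7 and 13.96 CPM in iEF, without overlap. Its log2 fold change was 3.23 (SE 0.47, edgeR adjusted p = 0.000279). *IFI6* was at 36.3, 39.4 and 115 CPM in WT-EF and 13.97, 15.9 and 14.7 CPM in iLuc, a difference of 1.81 on the log2 scale (SE 0.56, edgeR adjusted p = 0.0336), with replicate 3 the highest. Of 19 antigen presentation genes 4 (21.1%) were higher and none lower, against 10.7% and 9.03% over all genes tested. Nearly all members of both lists were lower in iLuc than in iEF, 27 of the 28 interferon-stimulated and 18 of the 19 antigen presentation genes. Of all genes lower in iLuc than in iEF, 39.2% were under-corrected. Set beside that share, neither list was left above iLuc unusually often. In the alternatives the number higher ran from 1 without replicate 2 to 9 with no filter on low counts. The class I heavy chain *HLA-B* was at 15.3, 8.53 and 14.2 CPM in iLuc, 58.3, 33.1 and 62.4 CPM in WT-EF and 233, 312 and 401 CPM in iEF, at a log2 fold change of 2.00 (SE 0.44, edgeR adjusted p = 0.00521). Class I genes are near-identical in places, so that their reads may be split unevenly. In the ComBat-adjusted data the log2 fold change was 1.98 for *OASL*, 1.31 for *IFI6* (adjusted p = 0.109, not called) and 1.13 for *HLA-B* (adjusted p = 0.112, not called). The calls lost in the alternatives were those on *IFI6* with no replicate block and without WT-EF replicate 1, iLuc replicate 2, iLuc replicate 3 or replicate 2 (adjusted p 0.0733 to 0.173) and on *HLA-B* without replicate 2 (adjusted p = 0.0879).

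Other genes raised by depletion showed no called change after rescue. The prohormone convertase *PCSK1* (chr5:95726037-95769847 of GRCh37), which cleaves peptide hormone precursors, was at 2.63, 1.63 and 1.64 CPM in iLuc replicates 1, 2 and 3. It stood at 69.8, 78.1 and 40.8 CPM in WT-EF and 75.5, 51.3 and 44.99 CPM in iEF. The WT-EF and iEF libraries overlapped and each exceeded all iLuc libraries. The difference from iLuc was 4.99 on the log2 scale (SE 0.25, edgeR adjusted p = 8.08e-08), and that from iEF 0.10 (SE 0.20, edgeR adjusted p = 0.765). The decoy receptor *IL13RA2* was at 33.6, 18.7 and 2.08 CPM in WT-EF and 31.0, 10.5 and 17.0 CPM in iEF, above 0.886, 0.617 and 0.478 CPM in iLuc by 4.50 on the log2 scale (SE 0.58, edgeR adjusted p = 0.000117). WT-EF replicate 3 was the lowest of these. The long noncoding RNA *LINC01013* had the largest fitted increase among genes averaging at least 50 counts and higher in each replicate set, 5.46 (SE 0.66, edgeR adjusted p = 6.4e-05), from 1, 5 and 1 counts in the iLuc libraries. The promoter of *PCSK1* is shown because it holds an 8-base GGAA pair (GGAAGGAA), and no difference between WT-EF and iEF was called for this gene. A link between the motif and the level was not tested. It is the RefSeq promoter, 250 bases before to 50 after the start, at chr5:96433199-96433498 of GRCh38.p14 on the minus strand, with the match in capitals as its reverse complement.
PCSK1: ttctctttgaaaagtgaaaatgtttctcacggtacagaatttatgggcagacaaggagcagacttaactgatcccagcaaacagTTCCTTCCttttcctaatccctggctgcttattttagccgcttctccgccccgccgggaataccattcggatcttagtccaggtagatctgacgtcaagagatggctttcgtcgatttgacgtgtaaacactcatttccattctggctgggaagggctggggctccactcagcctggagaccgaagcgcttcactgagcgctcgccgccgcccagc
GGAAGGAA on either strand was found in 3.42% of the 14814 promoters of tested genes, in 3.83% of under-corrected repressed, 2.31% of under-corrected activated and 4.2% of over-corrected genes. The ETS site CCGGAAGT was found in 6.91% of all, and in 5.9%, 5.52% and 4.9% of those groups. GGAAGGAA and CCGGAAGT share the letters GGAAG and can overlap. These windows do not reach the distant GGAA repeats at which EWS/FLI is known to act. After ComBat adjustment the log2 fold change was 2.97 for *PCSK1*, 2.60 for *IL13RA2* and 3.31 for *LINC01013*.

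EWS/FLI-activated targets divided between restored and partly restored genes. Of 29 EWS/FLI-activated targets, 10 (34.5%) were called lower and 3 (10.3%) higher in WT-EF than in iLuc (median -0.21). Over all genes tested the shares were 9.03% and 10.7%. Called higher in iLuc than in iEF were 26 of the 29, and of all such genes 35.3% were under-corrected. At 15 targets no difference from iLuc was called after a change from iEF towards iLuc. Over the alternatives the number lower ran from 4 without replicate 2 to 14 with no filter on low counts. The orphan nuclear receptor *NR0B1* was at 54.0, 61.2 and 49.8 CPM in iLuc, 42.2, 46.1 and 59.4 CPM in WT-EF and 3.94, 8.67 and 4.51 CPM in iEF. iLuc and WT-EF libraries overlapped, and the log2 fold change was -0.21 (SE 0.34, edgeR adjusted p = 0.745). *PPP1R1A*, an inhibitor of protein phosphatase 1, was at 55.0, 41.9 and 70.1 CPM in iLuc, 8.56, 7.40 and 19.5 CPM in WT-EF and 0.447, 0.809 and 0.436 CPM in iEF. No libraries overlapped between groups, and it was left at a log2 fold change of -2.32 (SE 0.31, edgeR adjusted p = 0.000147). The homeobox gene *NKX2-2*, with the levels given above and 0.946, 1.01 and 0.873 CPM in iEF, was left at a log2 fold change of -1.14 (SE 0.23, edgeR adjusted p = 0.00277). The neuropeptide Y receptor *NPY1R* was at 110.1, 104 and 137 CPM in iLuc and 52.4, 42.5 and 37.8 CPM in WT-EF, against 4.34, 9.98 and 4.74 CPM in iEF, at a log2 fold change of -1.39 (SE 0.26, edgeR adjusted p = 0.00181). The Hedgehog effector *GLI1* stayed at a log2 fold change of -1.32 (SE 0.36, edgeR adjusted p = 0.0174). Of the members called higher, *EGR2* (log2 1.08) and *PCDH7* (log2 0.91) lay beyond iLuc, while *SPRED3* (log2 1.18) was lower in iLuc than in iEF, against the name of the list. So was *TNNC2*, which is among the 15, and *CCND1* was called in no contrast. These 5 were picked out after their values were seen. Under another setting the call was lost on *GLI1* with no replicate block and without WT-EF replicate 1, WT-EF replicate 2, iLuc replicate 1, replicate 1 or replicate 2 (adjusted p 0.0989 to 0.232) and on *SPRED3* without WT-EF replicate 1, WT-EF replicate 3, iLuc replicate 1, iLuc replicate 2, replicate 1 or replicate 2 (adjusted p 0.0502 to 0.285).

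Other activated genes regained little or none of the iLuc level. *C7* (chr5:40909594-41020318 of GRCh37), of the membrane attack complex of complement, was at 34.3, 56.2 and 79.8 CPM in iLuc. It stood at 0.0831, 0.317 and 0.453 CPM in WT-EF and 0.131, 0.776 and 0.175 CPM in iEF, and the WT-EF and iEF libraries overlapped. The difference from iLuc was -7.67 on the log2 scale (SE 0.39, edgeR adjusted p = 8.08e-08), the largest fitted decrease by the same criteria. *C6*, of the same complex, was at 15.7, 17.4 and 21.4 CPM in iLuc and 0.0831, 0.608 and 1.30 CPM in WT-EF, with 0.0263, 0.135 and 0.0582 CPM in iEF. It had risen from iEF, from 1, 4 and 2 counts, and was left at a log2 fold change of -4.92 (SE 0.44, edgeR adjusted p = 6.1e-06). *C6* (chr5:41142218-41261540) and *PLCXD3* (chr5:41307054-41510703), which is described below, lie on the same stretch of chr5 as *C7*. Whether their decreases are separate was not tested. Of 18 complement genes 5 (27.8%) were lower and 3 (16.7%) higher, against 9.03% and 10.7% over all genes tested. Across the recomputed fits the number called lower ran from 2 without replicate 1 to 8 with no filter on low counts. Those higher, named after their values were seen, were the serine protease *CFI* (log2 2.37) and the membrane inhibitors *CD55* (log2 3.34) and *CD59* (log2 1.36). *CLUL1* was at 25.6, 38.4 and 60.2 CPM in iLuc, 1.94, 3.62 and 4.10 CPM in WT-EF and 0.394, 0.843 and 0.494 CPM in iEF, partly corrected to a log2 fold change of -3.68 (SE 0.22, edgeR adjusted p = 2.28e-07). *FAM110C* at -5.07 (SE 0.47, edgeR adjusted p = 7.53e-06), *AMBN*, which encodes the enamel protein ameloblastin, at a log2 fold change of -4.38 (SE 0.29, edgeR adjusted p = 5.06e-07), and *BHLHE22*, a neural transcription factor, at a log2 fold change of -4.17 (SE 0.47, edgeR adjusted p = 4.08e-05) showed no called change from iEF. Their iEF libraries held few counts, 6, 2 and 4 for *FAM110C*, 6, 3 and 8 for *AMBN* and 8, 8 and 4 for *BHLHE22*. At such counts a missing call does not show that there was no rise. Every WT-EF library of *AMBN* and *BHLHE22* lay above every iEF library, with 11, 12 and 16 and with 20, 20 and 11 counts. On the ComBat-adjusted counts the log2 fold change was 1.40 for *CFI*, 1.78 for *CD55* and 0.78 for *CD59*.

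Genes of sterol and fatty acid synthesis stayed below iLuc, many with no change from iEF called. The enzymes of cholesterol synthesis are transcribed together from promoters that bind SREBP with the CCAAT-binding factor NF-Y. Of 24 genes of cholesterol synthesis and uptake, 20 were called lower in WT-EF than in iLuc and none higher, with all 24 fold changes negative and a median of -0.88. The number called lower ran from 11 without replicate 1 to 22 on the ComBat-adjusted counts over the alternatives. For 12 of the 20 no difference between WT-EF and iEF was called, and 4 had moved part of the way. The median differences from the iLuc mean were -0.97, -0.94 and -0.65 in WT-EF and -1.05, -0.48 and -1.13 in iEF replicates 1, 2 and 3 on the log2(CPM + 1) scale, and iEF replicate 2 stood apart from the other two. *DHCR7* (chr11:71139239-71163914 of GRCh37), the reductase of the last step to cholesterol, was at 91.7, 88.0 and 99.4 CPM in iLuc. WT-EF libraries held 20.7, 27.8 and 39.4 CPM and iEF libraries 24.99, 46.9 and 29.0 CPM, overlapping one another and below iLuc. The log2 fold change was -1.71 (SE 0.20, edgeR adjusted p = 4.2e-05). *HMGCS1*, the synthase ahead of HMG-CoA reductase, was at 208, 212 and 177 CPM in iLuc, 90.8, 104 and 132 CPM in WT-EF and 51.0, 113 and 50.8 CPM in iEF, at a log2 fold change of -0.87 (SE 0.21, edgeR adjusted p = 0.00977). *MVD*, mevalonate diphosphate decarboxylase, was at 41.0, 47.1 and 37.3 CPM in iLuc and 16.9, 16.8 and 25.3 CPM in WT-EF, with 13.1, 25.6 and 14.5 CPM in iEF, at a log2 fold change of -1.09 (SE 0.20, edgeR adjusted p = 0.00142). *HSD17B7* (log2 -1.33) and the sterol carrier *STARD4* (log2 -1.28) were lower as well. In other analyses the call was lost on *HMGCS1* without WT-EF replicate 1, WT-EF replicate 2, iLuc replicate 1 or replicate 1 (adjusted p 0.0633 to 0.183), on *MVD* without replicate 1 (adjusted p = 0.0576) and on *STARD4* without replicate 1 (adjusted p = 0.116).

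Some of these promoters are shown because the CCAAT box they carry was shared by most of the list. Each is the RefSeq promoter on the minus strand of GRCh38.p14, 250 bases before to 50 after the start, with CCAAT or its reverse complement ATTGG in capitals. *HMGCS1* lies at chr5:43313363-43313662, *DHCR7* at chr11:71448344-71448643 and *MVD* at chr16:88663042-88663341.
HMGCS1: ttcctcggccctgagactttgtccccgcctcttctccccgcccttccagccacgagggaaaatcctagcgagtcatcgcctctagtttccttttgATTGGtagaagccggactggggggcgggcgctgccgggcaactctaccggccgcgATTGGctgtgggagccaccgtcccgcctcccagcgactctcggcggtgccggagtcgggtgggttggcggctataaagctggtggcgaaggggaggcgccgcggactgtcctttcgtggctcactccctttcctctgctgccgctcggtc
DHCR7: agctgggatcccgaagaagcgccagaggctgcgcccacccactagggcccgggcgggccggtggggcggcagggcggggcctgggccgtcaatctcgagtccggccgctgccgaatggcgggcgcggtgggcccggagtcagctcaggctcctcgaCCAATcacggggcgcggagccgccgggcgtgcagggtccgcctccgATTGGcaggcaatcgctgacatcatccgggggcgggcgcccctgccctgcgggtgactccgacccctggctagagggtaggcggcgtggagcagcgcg
MVD: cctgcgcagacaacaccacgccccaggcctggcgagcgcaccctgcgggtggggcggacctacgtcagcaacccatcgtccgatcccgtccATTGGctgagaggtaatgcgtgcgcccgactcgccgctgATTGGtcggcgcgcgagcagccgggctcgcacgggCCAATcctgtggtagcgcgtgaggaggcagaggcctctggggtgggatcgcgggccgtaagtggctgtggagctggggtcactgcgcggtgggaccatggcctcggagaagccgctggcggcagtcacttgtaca
*HMGCS1* and *DHCR7* hold 2 matches each and *MVD* holds 3. CCAAT was found in 15 of the 18 cholesterol synthesis promoters in the table (83.3%), in 7 of 16 fatty acid synthesis promoters (43.8%), in 17 of 29 DNA replication promoters (58.6%) and in 35.9% of all 14814. It was chosen as a motif, and these genes as examples, after the data were seen. A match is a run of letters and not a measured binding site.

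In fatty acid synthesis 10 of 17 genes were lower and none higher (median -0.66). Across the alternatives the number lower ran from 5 without replicate 1 to 11 with no filter on low counts. Here WT-EF replicate 3 stood near iLuc, with medians from the iLuc mean of -0.79, -0.80 and -0.16. The iEF medians were -0.48, -0.30 and -0.42, so that WT-EF replicates 1 and 2 lay below all iEF libraries. Between WT-EF and iEF, 4 of the 17 genes were called lower in WT-EF and 1 higher. For 8 of the 10 genes below iLuc no difference from iEF was called. Fatty acid synthase (*FASN*) was at 247, 257 and 218 CPM in iLuc, 89.3, 86.6 and 150.1 CPM in WT-EF and 82.7, 117 and 93.3 CPM in iEF. WT-EF lay below every iLuc library, at a log2 fold change of -1.17 (SE 0.17, edgeR adjusted p = 0.000235), and overlapped iEF. The desaturase *SCD* was at 538, 531 and 566 CPM in iLuc and 145, 161 and 390.2 CPM in WT-EF, with replicate 3 the highest of the rescued libraries, at a log2 fold change of -1.33 (SE 0.29, edgeR adjusted p = 0.00499). The delta-5 desaturase *FADS1* was at 1201, 1090.1 and 1311 CPM in iLuc, 343, 294 and 909 CPM in WT-EF and 367, 561 and 327 CPM in iEF, at a log2 fold change of -1.32 (SE 0.29, edgeR adjusted p = 0.00527). *ELOVL6*, an elongase of fatty acids, was left at a log2 fold change of -1.29 (SE 0.20, edgeR adjusted p = 0.000471). The calls lost in the alternatives were those on *SCD* without replicate 1 (adjusted p = 0.155) and on *FADS1* without replicate 1 or replicate 2 (adjusted p 0.0542 to 0.155).

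**Figure D4:**
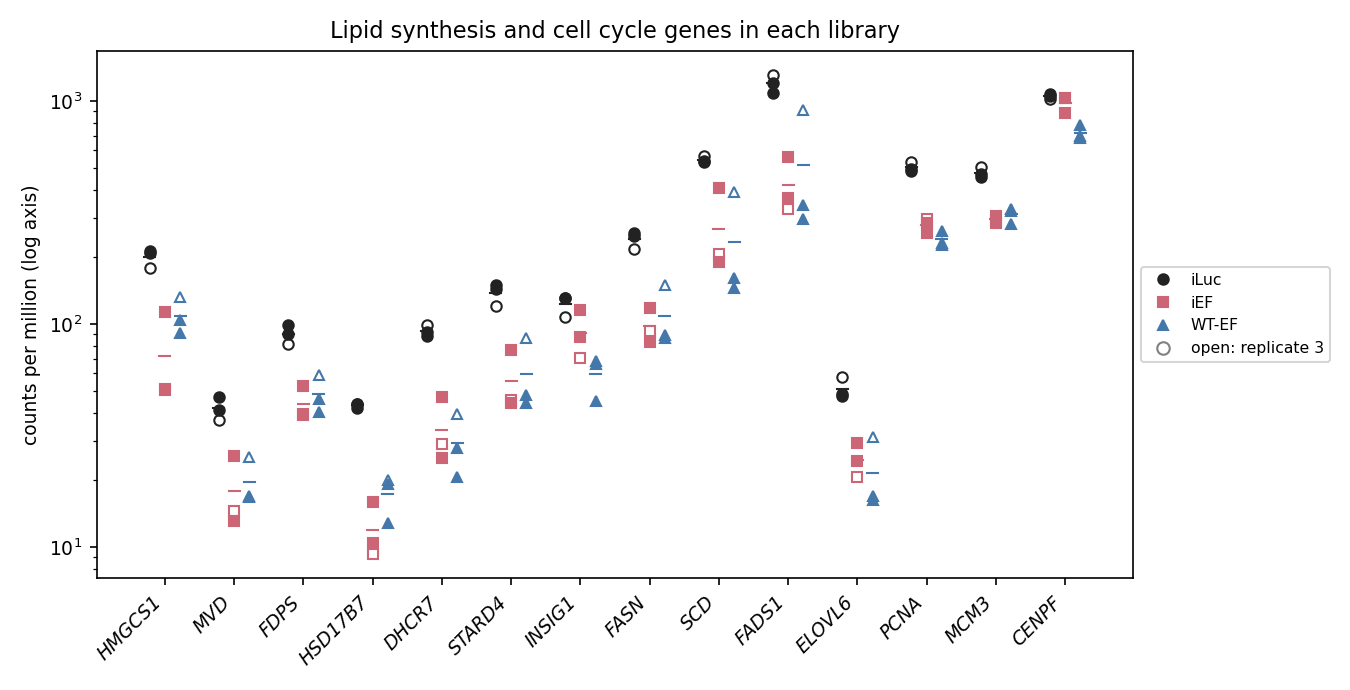
CPM on a log axis in each iLuc (black circles), iEF (red squares) and WT-EF (blue triangles) library for genes of lipid synthesis, DNA replication and mitosis, with open symbols for replicate 3 and short lines for group means. WT-EF libraries lie below iLuc for every gene shown and overlap iEF for each one other than *INSIG1* and *CENPF*, and replicate 3 is the highest rescued library for the 11 lipid genes.

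DNA replication genes were lower by small amounts. Of 32, 18 were lower and none higher (median -0.31), and for 16 of the 18 no difference from iEF was called. The number called lower ran from 6 without replicate 2 to 18 on the ComBat-adjusted counts over the alternatives. The sliding clamp *PCNA* was at 483, 494 and 533 CPM in iLuc, 226, 262 and 231 CPM in WT-EF and 283, 256 and 294 CPM in iEF, and the WT-EF and iEF ranges overlapped. It was left at a log2 fold change of -1.07 (SE 0.09, edgeR adjusted p = 3.21e-06). The replicative helicase subunit *MCM3* was at 457, 469 and 505 CPM in iLuc and 282, 323 and 327 CPM in WT-EF, at a log2 fold change of -0.62 (SE 0.08, edgeR adjusted p = 7.2e-05). *LIG1* (log2 -0.58) and the polymerase subunit *POLA1* (log2 -0.55) followed. Of 30 genes of mitosis and the spindle, 7 (23.3%) were lower and none higher (median -0.28), against 9.03% and 10.7% over all genes tested. The number called lower ran from 0 without replicate 2 to 12 with no filter on low counts over the alternatives. *CENPF*, of the kinetochore, was at 1050.3, 1079.9 and 1017 CPM in iLuc, 781, 694 and 683 CPM in WT-EF and 1035, 882 and 1032 CPM in iEF, so that rescued libraries lay below both other groups, at a log2 fold change of -0.55 (SE 0.12, edgeR adjusted p = 0.006). Of 18 G1 cyclins, CDKs and their inhibitors 3 (16.7%) were higher and 3 (16.7%) lower, against 10.7% and 9.03% over all genes tested. Their median was -0.10. With the other settings the number called higher ran from 1 without replicate 2 to 4 with DESeq2's Wald test or with no filter on low counts and the number lower from 1 without WT-EF replicate 1 or WT-EF replicate 2 to 4 with no filter on low counts or without WT-EF replicate 3. The CDK inhibitor *CDKN1A* (p21) was at 14.3, 15.8 and 18.0 CPM in iLuc, 54.1, 55.8 and 57.0 CPM in WT-EF and 89.9, 77.6 and 109 CPM in iEF, at a log2 fold change of 1.81 (SE 0.16, edgeR adjusted p = 4.92e-06). *CDKN1B* (p27) went the other way, at 58.1, 63.7 and 55.3 CPM in iLuc, 31.3, 33.4 and 35.6 CPM in WT-EF and 47.0, 47.2 and 46.8 CPM in iEF, at a log2 fold change of -0.82 (SE 0.11, edgeR adjusted p = 0.00019). *CDK6* was higher by 1.07, and the cell cycle factor *E2F2* was lower, at a log2 fold change of -0.56 (SE 0.15, edgeR adjusted p = 0.0192). Under another setting the call was lost on *LIG1* without replicate 2 (adjusted p = 0.0535), on *POLA1* without replicate 2 (adjusted p = 0.0682) and on *CENPF* without iLuc replicate 2, iLuc replicate 3 or replicate 2 (adjusted p 0.0531 to 0.108). In other analyses the call was lost on *CDK6* without replicate 2 (adjusted p = 0.0778) and on *E2F2* with no replicate block and without WT-EF replicate 1, WT-EF replicate 2, iLuc replicate 1, iLuc replicate 2, iLuc replicate 3, replicate 1 or replicate 2 (adjusted p 0.0521 to 0.219).

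Cytosolic ribosomal proteins (15 of 33 lower, none higher, median -0.28) and oxidative phosphorylation (12 of 28 lower, none higher, median -0.23) had shifts of the same small size. The shares called lower were 45.5% and 42.9%, against 9.03% over all genes tested. All 33 ribosomal protein genes had a negative fold change. Over the alternatives the number lower ran from 2 without replicate 1 to 20 without WT-EF replicate 2 for ribosomal proteins and 3 without replicate 1 to 13 without WT-EF replicate 2 for oxidative phosphorylation. *RPL13* was at 487, 529 and 499.7 CPM in iLuc, 299, 373 and 375 CPM in WT-EF and 295, 285 and 319.7 CPM in iEF, at a log2 fold change of -0.54 (SE 0.08, edgeR adjusted p = 0.000481). The cytochrome oxidase subunit *COX7C* was at 224, 244 and 244 CPM in iLuc, 114, 159 and 157 CPM in WT-EF and 96.5, 93.3 and 89.8 CPM in iEF, at a log2 fold change of -0.74 (SE 0.10, edgeR adjusted p = 0.000151). The medians of ribosomal protein genes from the iLuc mean were -0.31, -0.14 and -0.38 in WT-EF replicates, and here replicate 2 was the nearest to iLuc.

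**Figure D5:**
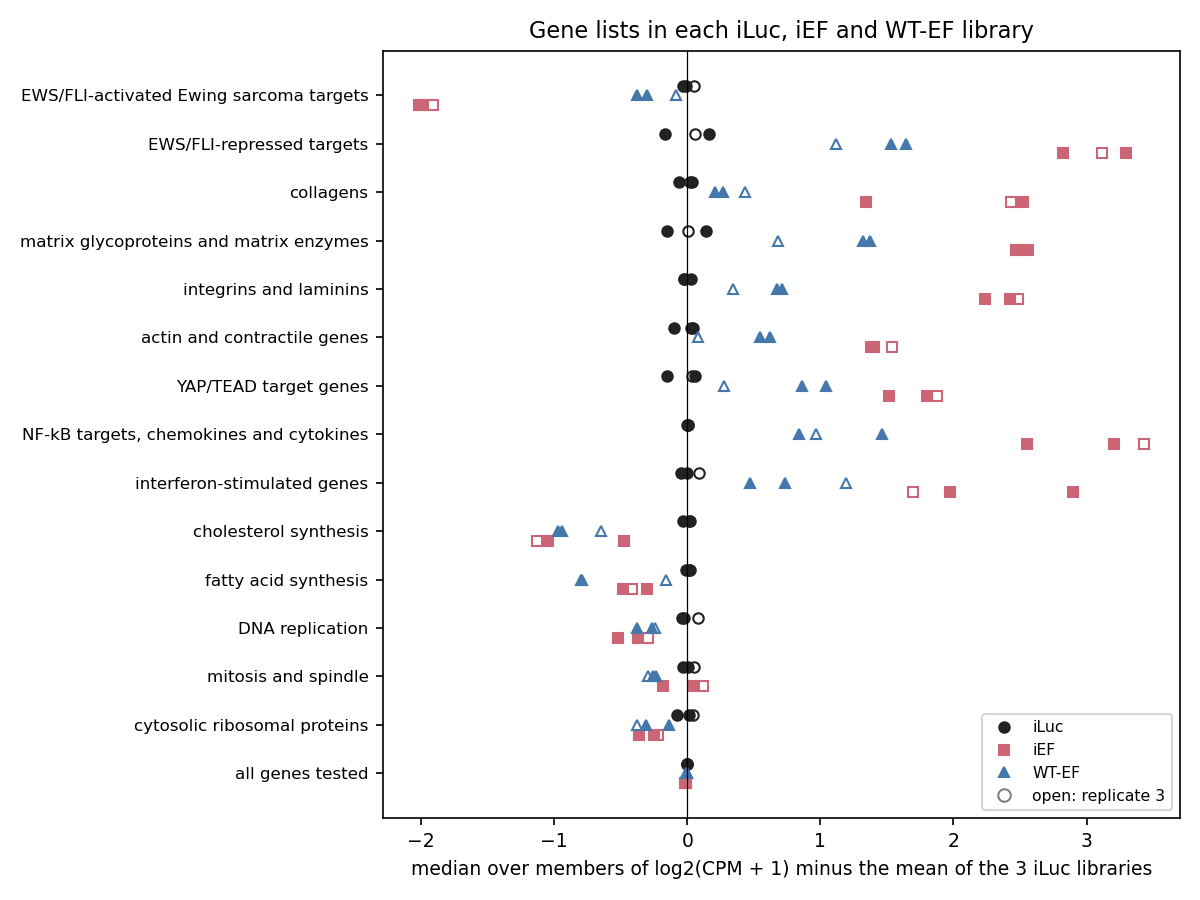
Each symbol is 1 library and gives, for a gene list, the median over its members of log2(CPM + 1) minus the mean of the 3 iLuc libraries (x axis). WT-EF libraries (blue triangles) lie between iLuc (black circles) and iEF (red squares) for repressed targets, matrix and adhesion lists, with replicate 3 (open) nearest to iLuc for most of them, and beside iEF for cholesterol synthesis and DNA replication.

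The immediate early list split. Of 24 genes 12 (50%) were higher and 4 (16.7%) lower, against 10.7% and 9.03% over all genes tested (median 0.32). Over all 16 analyses the number called higher ran from 7 without replicate 1 to 12 and the number lower from 1 without WT-EF replicate 2 or iLuc replicate 2 to 5 without WT-EF replicate 3 or replicate 3. Higher were the AP-1 subunits *FOSL2* and *FOSL1* and 8 of the 9 DUSP, SPRY and SPRED members, which feed back on ERK signalling and were grouped after their values were seen. *FOSL2* was at 9.44, 6.09 and 9.22 CPM in iLuc, 90.7, 67.2 and 38.7 CPM in WT-EF and 181, 186 and 199 CPM in iEF, without overlap, at a log2 fold change of 3.01 (SE 0.27, edgeR adjusted p = 5.95e-06). *FOSL1* was left at a log2 fold change of 1.98 (SE 0.23, edgeR adjusted p = 5.73e-05) and the Sprouty protein *SPRY2* at 2.42 (SE 0.21, edgeR adjusted p = 4.6e-06). Lower were *FOS*, *FOSB*, *EGR1* and *EGR3*, named after their values were seen, all transcription factors induced within minutes of a stimulus. *FOS* was at 139.7, 239 and 333 CPM in iLuc, 59.7, 42.9 and 136 CPM in WT-EF and 141, 211 and 134 CPM in iEF. Its level varied over 2-fold within iLuc, WT-EF lay below iLuc, and the log2 fold change was -1.66 (SE 0.41, edgeR adjusted p = 0.00963). *FOSB* had a fold change of -1.74, *EGR1* of -0.99 and *EGR3* of -1.23. In the ComBat-adjusted data the log2 fold change was 1.81 for *FOSL2*, 1.20 for *FOSL1* and 1.38 for *SPRY2*. The calls lost in the alternatives were those on *FOS* without WT-EF replicate 2 or iLuc replicate 2 (adjusted p 0.0562 to 0.0692), on *FOSB* without WT-EF replicate 2 or iLuc replicate 2 (adjusted p 0.0852 to 0.0948) and on *EGR1* with no replicate block and without replicate 1 or replicate 2 (adjusted p 0.0831 to 0.149). Under another setting the call was lost on *EGR3* with no replicate block and without WT-EF replicate 1, WT-EF replicate 2, iLuc replicate 2, replicate 1 or replicate 2 (adjusted p 0.0559 to 0.187).

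The IGF system held members on both sides of iLuc. Of 19 genes 8 (42.1%) were higher and 3 (15.8%) lower, against 10.7% and 9.03% over all genes tested. Under these alternatives the number called higher ran from 4 without replicate 1 to 8 and the number lower from 2 without replicate 1 or replicate 2 to 5 with no filter on low counts or without replicate 3. The ligand *IGF1* was over-corrected, at 28.0, 21.9 and 22.4 CPM in iLuc, 61.6, 61.1 and 86.0 CPM in WT-EF and 0.972, 2.70 and 1.22 CPM in iEF. Every WT-EF library exceeded every iLuc library, by 1.48 on the log2 scale (SE 0.32, edgeR adjusted p = 0.0045). The binding proteins *IGFBP5* and *IGFBP7* were under-corrected instead. *IGFBP5* was at 31.1, 42.1 and 28.3 CPM in iLuc, 164, 176 and 130.3 CPM in WT-EF and 968, 977 and 553 CPM in iEF, at a log2 fold change of 2.21 (SE 0.14, edgeR adjusted p = 3.46e-07). *IGFBP7* was left at a log2 fold change of 2.57 (SE 0.38, edgeR adjusted p = 0.000341). After ComBat adjustment the log2 fold change was 0.93 for *IGFBP5* and 0.77 for *IGFBP7* (adjusted p = 0.168, not called).

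Axon guidance genes were called higher at 16 of 34 (47.1%) and lower at 4 (11.8%), against 10.7% and 9.03% over all genes tested (median 0.51). Across the recomputed fits the number called higher ran from 11 to 17 and the number lower from 1 without WT-EF replicate 2 or replicate 1 to 6 with no filter on low counts. *SEMA3A*, a secreted repellent, was at 52.8, 51.6 and 52.7 CPM in iLuc, 220.0, 201 and 172 CPM in WT-EF and 526, 492 and 561 CPM in iEF, at a log2 fold change of 1.92 (SE 0.10, edgeR adjusted p = 1.02e-07). *SEMA3D*, of the same class, was left below iLuc, at 69.8, 55.4 and 81.7 CPM in iLuc, 24.7, 23.4 and 20.6 CPM in WT-EF and 18.3, 22.3 and 15.3 CPM in iEF, at a log2 fold change of -1.61 (SE 0.19, edgeR adjusted p = 5.36e-05). The Slit receptor *ROBO2* was over-corrected, at 39.8, 41.6 and 41.4 CPM in iLuc, 105, 139.7 and 125 CPM in WT-EF and 17.6, 21.6 and 16.2 CPM in iEF. It lay beyond iLuc by 1.57 on the log2 scale (SE 0.14, edgeR adjusted p = 5.79e-06). Neural and synaptic genes were higher at 9 of 31 (29%) and lower at 4 (12.9%). With the other settings the number called higher ran from 6 to 10 and the number lower from 2 with no replicate block or without WT-EF replicate 1 to 6 with no filter on low counts. The neurofilament *NEFM* was at 28.6, 29.1 and 33.7 CPM in iLuc, 91.3, 93.6 and 71.6 CPM in WT-EF and 97.0, 81.9 and 80.3 CPM in iEF, at a log2 fold change of 1.48 (SE 0.13, edgeR adjusted p = 5.08e-06). In the Wnt list 6 of 30 (20%) were higher and 7 (23.3%) lower. Over all 16 analyses the number called higher ran from 3 without replicate 1 or replicate 2 to 8 without WT-EF replicate 3 and the number lower from 2 without replicate 1 to 7. The noncanonical ligand *WNT5A* was at 28.4, 30.0 and 39.4 CPM in iLuc, 8.50, 13.7 and 10.04 CPM in WT-EF and 42.4, 33.9 and 39.9 CPM in iEF. No knockdown change was called, and the rescued libraries lay below both other groups, at a log2 fold change of -1.62 (SE 0.27, edgeR adjusted p = 0.000738). Its relative *WNT5B* was left higher by 1.85 on the log2 scale (SE 0.25, edgeR adjusted p = 0.000165), as was the secreted *DKK3* by 3.16 on the log2 scale (SE 0.18, edgeR adjusted p = 1.47e-07). Notch genes were higher at 4 (18.2%) and lower at 5 (22.7%) of 22, with the effector *HEY1* at 2.64 and *HES6* at -1.79 on the log2 scale. Under these alternatives the number called higher ran from 2 without replicate 1 to 5 with no filter on low counts or without WT-EF replicate 3 and the number lower from 1 without replicate 2 to 6 without iLuc replicate 3 or replicate 3. HOX genes were higher at 2 (6.9%) and lower at 5 (17.2%) of 29, against 10.7% and 9.03% over all genes tested. *HOXB9* was left at a log2 fold change of -1.51 (SE 0.19, edgeR adjusted p = 0.000109). Across the recomputed fits the number called higher ran from 0 without replicate 1 or replicate 2 to 2 and the number lower from 2 without replicate 1 or replicate 2 to 6 on the ComBat-adjusted counts or without replicate 3. On the ComBat-adjusted counts the log2 fold change was 0.86 for *WNT5B* and 1.05 for *DKK3*.

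Of 31 glycolysis and hypoxia genes 6 (19.4%) were higher and 9 (29%) lower, against 10.7% and 9.03% over all genes tested. With the other settings the number called higher ran from 3 without replicate 1 or replicate 2 to 12 without WT-EF replicate 3 or replicate 3 and the number lower from 5 without replicate 1 or replicate 2 to 11 with no filter on low counts. The stress-induced *NDRG1* was at 4.55, 4.07 and 4.24 CPM in iLuc, 51.1, 33.5 and 9.77 CPM in WT-EF and 144, 125 and 133 CPM in iEF, at a log2 fold change of 2.79 (SE 0.36, edgeR adjusted p = 0.000118), and the vasodilator peptide gene *ADM* was left at a log2 fold change of 2.03 (SE 0.36, edgeR adjusted p = 0.00114). Among those lower, the aldolase *ALDOC* was at 6.20, 11.1 and 6.24 CPM in iLuc, 1.25, 2.51 and 4.55 CPM in WT-EF and 1.71, 3.95 and 1.43 CPM in iEF, at a log2 fold change of -1.62 (SE 0.41, edgeR adjusted p = 0.0114). In the amino acid and ER stress list 6 of 25 (24%) were higher and 7 (28%) lower. Over all 16 analyses the number called higher ran from 3 without WT-EF replicate 1 or WT-EF replicate 2 to 11 without WT-EF replicate 3 or replicate 3 and the number lower from 3 without replicate 1 to 8 without replicate 3. *PHGDH*, the first enzyme of serine synthesis, was at 226, 308 and 266 CPM in iLuc, 87.6, 172 and 181 CPM in WT-EF and 64.5, 112 and 96.9 CPM in iEF, at a log2 fold change of -0.91 (SE 0.12, edgeR adjusted p = 0.000145). The stress factor *DDIT3* was at 12.8, 9.87 and 10.3 CPM in iLuc, 27.5, 23.7 and 18.7 CPM in WT-EF and 14.3, 15.6 and 12.6 CPM in iEF, highest in rescued cells, at a log2 fold change of 1.08 (SE 0.18, edgeR adjusted p = 0.000809). The ER stress factor *XBP1* was left higher by 1.01 on the log2 scale (SE 0.15, edgeR adjusted p = 0.000255). Chromatin regulators of the BAF and Polycomb complexes were lower at 8 (25%) and higher at 3 (9.38%) of 32, none past 2-fold. Under these alternatives the number called higher ran from 1 without replicate 1 or replicate 2 to 5 on the ComBat-adjusted counts and the number lower from 0 without WT-EF replicate 1 or iLuc replicate 2 to 10 on the ComBat-adjusted counts or without WT-EF replicate 3. Of 29 voltage-gated ion channels 5 (17.2%) were higher and 4 (13.8%) lower. Across the recomputed fits the number called higher ran from 3 without replicate 1 or replicate 2 to 7 without replicate 3 and the number lower from 3 without replicate 1 or replicate 2 to 8 without replicate 3. The calcium channel *CACNA1H* was at 35.2, 49.8 and 33.1 CPM in iLuc, 7.86, 14.4 and 17.8 CPM in WT-EF and 0.920, 2.53 and 1.48 CPM in iEF, at a log2 fold change of -1.63 (SE 0.28, edgeR adjusted p = 0.000846). The potassium channel *KCNMA1* went the other way (log2 1.78). In the ComBat-adjusted data the log2 fold change was 1.60 for *NDRG1*, 1.04 for *ADM* and 0.92 for *KCNMA1* (adjusted p = 0.0571, not called). In other analyses the call was lost on *ADM* without replicate 1 or replicate 2 (adjusted p 0.0528 to 0.063) and on *ALDOC* with no replicate block and without WT-EF replicate 1, WT-EF replicate 2, iLuc replicate 1, iLuc replicate 2, replicate 1 or replicate 2 (adjusted p 0.0517 to 0.217).

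Few genes were called over-corrected, in a split that the shared iLuc libraries tilt against this class. They went further upward than downward. Of the 205 over-corrected genes, 113 lay above iLuc, 55 of them past 2-fold, and 92 lay below it, 10 of them past 2-fold. *IGSF21*, an immunoglobulin superfamily gene, was at 0.183, 0.785 and 0.627 CPM in iLuc and 4.38, 6.47 and 14.9 CPM in WT-EF, and was at 1 count or fewer in each of the iEF libraries. WT-EF replicate 3 was the highest, and the difference from iLuc was 4.06 on the log2 scale (SE 0.40, edgeR adjusted p = 1.23e-05). The noncoding RNA *LINC01192* was at 1.28, 1.09 and 0.358 CPM in iLuc and 4.21, 6.02 and 10.8 CPM in WT-EF, at a log2 fold change of 2.98 (SE 0.48, edgeR adjusted p = 0.000578). *CALCA*, the gene of calcitonin and CGRP, was left at a log2 fold change of 2.43 (SE 0.50, edgeR adjusted p = 0.003). The neurotrophic factor *GDNF*, which depletion raised, was taken below the iLuc level. It was at 7.46, 6.51 and 9.61 CPM in iLuc, 2.10, 2.03 and 1.49 CPM in WT-EF and 18.0, 9.07 and 14.4 CPM in iEF, at a log2 fold change of -2.06 (SE 0.24, edgeR adjusted p = 4.77e-05). *G0S2*, an inhibitor of triglyceride lipase, was at 31.4, 24.9 and 35.1 CPM in iLuc, 15.6, 12.5 and 11.3 CPM in WT-EF and 53.9, 91.6 and 46.0 CPM in iEF, at a log2 fold change of -1.24 (SE 0.23, edgeR adjusted p = 0.00165). *MEGF6* showed a log2 fold change of -1.30 (SE 0.32, edgeR adjusted p = 0.00939). The calls lost in the alternatives were those on *CALCA* without replicate 1 (adjusted p = 0.0842) and on *MEGF6* without WT-EF replicate 2, iLuc replicate 2, replicate 1 or replicate 2 (adjusted p 0.0531 to 0.174).

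Of the 991 genes that differed from iLuc only after rescue by these calls, 467 were higher and 524 lower. That no knockdown change was called does not show that there was none. *DACT2*, an inhibitor of Wnt and TGF-beta signalling, was at 2.96, 2.67 and 5.13 CPM in iLuc, 27.7, 31.3 and 34.9 CPM in WT-EF and 3.26, 3.71 and 4.33 CPM in iEF. The iLuc and iEF libraries overlapped and all WT-EF libraries lay far above both, at a log2 fold change of 3.13 (SE 0.26, edgeR adjusted p = 3.82e-06). The complement receptor *C3AR1* was at 0.978, 0.729 and 1.37 CPM in iLuc, 7.78, 8.30 and 10.3 CPM in WT-EF and 0.657, 1.42 and 0.494 CPM in iEF, at a log2 fold change of 3.09 (SE 0.35, edgeR adjusted p = 3.99e-05). *LRRTM4*, a synaptic adhesion protein, was left at a log2 fold change of 3.65 (SE 0.43, edgeR adjusted p = 5.85e-05). The receptor kinase *KIT* was lower, at 19.5, 25.8 and 20.1 CPM in iLuc, 3.79, 5.63 and 2.88 CPM in WT-EF and 15.9, 9.95 and 17.9 CPM in iEF. Rescued libraries lay below both other groups, at a log2 fold change of -2.43 (SE 0.33, edgeR adjusted p = 0.00016). The sulfotransferase *SULT1B1* showed a log2 fold change of -2.07 (SE 0.30, edgeR adjusted p = 0.000275) and the natriuretic peptide receptor *NPR3* -2.24 (SE 0.61, edgeR adjusted p = 0.0182). Under another setting the call was lost on *NPR3* without WT-EF replicate 1, WT-EF replicate 3, iLuc replicate 1, iLuc replicate 3 or replicate 1 (adjusted p 0.0503 to 0.137).

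Finally, at 90 of the under-corrected genes WT-EF differed from iEF in the direction away from iLuc, 42 of them above iLuc and 48 below it. Genes with no call between iLuc and iEF, such as *DACT2*, are outside this count. The noncoding RNA *LINC03070* was at 6.05, 3.65 and 5.61 CPM in iLuc, 152, 109 and 75.7 CPM in WT-EF and 54.0, 66.9 and 56.4 CPM in iEF, at a log2 fold change of 4.43 (SE 0.25, edgeR adjusted p = 1.47e-07). *GAP43*, a growth cone protein of neurons, was at 21.4, 15.1 and 24.4 CPM in iLuc, 112, 183 and 183 CPM in WT-EF and 92.4, 135 and 86.6 CPM in iEF. Its difference from iLuc was 2.94 on the log2 scale (SE 0.22, edgeR adjusted p = 1.57e-06), and WT-EF and iEF overlapped. The BMP9 receptor *ACVRL1* was at 0.183, 0.309 and 0.239 CPM in iLuc, 2.38, 3.36 and 4.07 CPM in WT-EF and 0.342, 1.05 and 0.785 CPM in iEF. All WT-EF libraries exceeded the other groups, with a difference from iLuc of 3.77 on the log2 scale (SE 0.37, edgeR adjusted p = 1.16e-05). The B cell survival factor *TNFSF13B* was at 14.6, 27.9 and 29.1 CPM in iLuc, 0.914, 2.38 and 2.50 CPM in WT-EF and 4.20, 5.87 and 5.41 CPM in iEF. WT-EF was the lowest group without overlap, at a log2 fold change of -3.66 (SE 0.30, edgeR adjusted p = 3.21e-06). *PLCXD3* followed the same order at -3.41 (SE 0.21, edgeR adjusted p = 3.3e-07), as did *PLEKHA7*, of adherens junctions, at a log2 fold change of -2.96 (SE 0.31, edgeR adjusted p = 2.21e-05).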

How the data were processed

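RNA-seq libraries of A673 cells were compared, 3 per group, with groups and replicate numbers taken from the labels. The authors aligned reads to hg19 with STAR (2.5.1b per the submitters' processing notes) and counted them per gene with HTSeq, and the annotation version is not given in the sources used here. They deposited the raw read counts per gene, 57820 identifiers, which were the values tested. They also deposited estimated counts after ComBat adjustment of replicate sets for 27002 genes, which were rounded for an alternative analysis. The other table holds the authors' own fold changes and p-values, which were not used. Only its gene names were read, for 259 of the tested genes. 3 columns of the count table that match no labelled sample were not used.

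Counts of all 15 libraries were fitted with edgeR 4.0.16 (R 4.3.3) by the quasi-likelihood test with TMM normalization, the replicate number as a block and genes averaging at least 1 count. Benjamini-Hochberg adjustment covered 28793 genes. The block follows the authors' adjustment of replicate sets. Deviations from group means in same-numbered libraries correlated with a median of 0.17 over 30 pairs, against -0.0826 over 60 pairs of different number, and from -0.124 to 0.342 for the 3 iLuc with WT-EF pairs. Alternatives were DESeq2 1.42.0, its size factors, no filter or an average of at least 10 counts, no block, only the 6 libraries, ComBat-adjusted counts with DESeq2, and libraries left out. Depth limits genes of few counts, and a total count bounds precision by counting error only.

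The gene lists, and the comparison itself, were chosen with earlier results of these data known. The rule for named genes took *FLI1*, *EWSR1*, 5 genes the study followed by qRT-PCR, the 10 largest increases and decreases (2-fold or more, averaging at least 50 counts, same direction in all replicate sets), the 3 largest per class and direction, and up to 4 called members per list. The genes *HMGCS1*, *MVD*, *FDPS*, *INSIG1*, *FOS*, *FOSB*, *EGR1*, *EGR3*, *EGR2*, *PCDH7*, *SPRED3*, *TNNC2*, *CCND1*, *TNNT2*, *ELN*, *FBLN5*, *COL13A1*, *STEAP1*, *LIPI* and *CD59* and the CCAAT motif were added after the data were seen. Promoters are RefSeq sequences of GRCh38.p14, matched by symbol for 14814 tested genes, whereas gene positions are of GRCh37. Some listed genes are not reported here.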

Additional observations from a re-analysis of the deposited data

How the results depend on the processing

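No called value turned its direction in the 16 alternative analyses, and *NR0B1*, which was not called in any, was at a log2 fold change of 0.18 without iLuc replicate 1 against -0.21. Over 196 genes and these analyses the call and direction were unchanged at 120 genes in every analysis that gave a value. Of the 109 totals recomputed, 80 were within 1.5 times. Without the replicate block 2625 genes were higher and 1957 lower, 1386 and 722 of them past 2-fold, with 3665 under-corrected, 141 over-corrected and 776 changed after rescue only, so the block changed no total by over 1.5 times. Fitting the 6 libraries alone gave 1578 lower, and the ComBat-adjusted counts with DESeq2 gave 584 lower past 2-fold. Leaving libraries out gave 1121 (without replicate 2) to 4291 (without replicate 3) genes higher and 698 (without replicate 1) to 2718 (without WT-EF replicate 3) lower. Past 2-fold the ranges were 737 to 1923 higher and 355 to 1103 lower. Under-corrected genes ran from 1468 to 5485, over-corrected genes from 63 to 205 and genes changed after rescue only from 298 to 1351. Dropping a replicate number removes libraries from every group, so these analyses had fewer samples. The share of called genes that were higher was 54.2% and at most 63.3% in an alternative.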
